A study of Mus musculus with 12 samples.

Results

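Metallothioneins Mt1 and Mt2 and 4 carriers of zinc and manganese, Slc30a1, Slc30a10, Slc39a10 and Slc39a14, were followed in AML12 mouse hepatocytes exposed to a copper load. These 6 genes of the 24824 in the expression table were taken by symbol. They had been selected on values measured in these libraries, the opposite changes of Mt1 and Mt2 under copper and how those changes moved with the scaling of the libraries. The changes of these 6 genes with copper are therefore described below without a test, and their tests are given only for the bile acid comparisons. Copper tests are given for other genes, some of which were named after values were seen. Of the 6 genes, 5 passed the filter on low values, a mean of at least 1 FPKM over all libraries (fragments mapped to a gene, divided by its length and the library's total), and 10615 genes of the table did.

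AML12 is a hepatocyte line derived from mice that carry a human TGF-alpha transgene driven by the mouse Mt1 promoter. All cells were labelled wild type and were sampled after 24 h. Group A was left untreated in standard medium, which per the methods held serum, insulin, transferrin and selenium. Group B received 300 μM CuCl2 with 40 nM elesclomol (ES), an ionophore that carries copper into cells, and this combination is called Cu/ES. Group C received Cu/ES together with 1000 μM TCA (taurocholic acid, a conjugated bile acid). Group D received 1000 μM TCA alone. Each group had 3 libraries of polyA RNA, and the labels do not say whether these were separate cultures, so the tests measure the spread between libraries only.

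Metallothioneins are small cysteine-rich proteins that hold zinc and copper in the cytosol. Their genes are switched on by the zinc-sensing factor MTF-1, which binds metal response elements near their start sites, and a rise in free zinc, including zinc displaced from proteins by copper, is known to activate it. The same factor drives Slc30a1, the zinc exporter of the plasma membrane, and is known to lower Slc39a10, a zinc importer. Slc39a14 takes up zinc, manganese and iron into liver cells, and Slc30a10 exports manganese.

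The numbers of reads behind the FPKM were worked back from the steps between low values, and a library held from 29115011 to 39782142 reads. The composition of the libraries differed with Cu/ES. The 10 genes with most reads took 4.99 to 5.17% of reads in untreated cells and 4.69 to 4.81% with TCA, against 12.1 to 12.9% with Cu/ES and 11.4 to 12.2% with Cu/ES plus TCA. The median of all 10615 genes fell by 1.10 on the log2 scale in group B relative to group A and fell by 1.13 in group C relative to group D, so each Cu/ES change below is also given relative to that median. The hepatocyte label was checked on 12 marker genes, of which 9 were in the table. Their summed level was 602 to 655 FPKM in group A, 264 to 316 with Cu/ES, 205 to 247 with Cu/ES plus TCA and 707 to 726 with TCA alone, most of it Krt8 and Krt18, and the defining genes Alb, Trf and Hnf4a were under 1 FPKM in every library. Against the sum, Afp was at 1.87 to 3.36 FPKM in group A and 19.1 to 19.5 in group B, and Apoe at 1.58 to 2.01 in group A, 7.47 to 8.60 with Cu/ES and 19.2 to 21.7 with Cu/ES plus TCA. Fibroblast and stellate markers (5 of 6 in the table) summed to 140 to 206 FPKM in group A, 3.23 to 5.21 with Cu/ES, 1.25 to 2.29 with Cu/ES plus TCA and 121 to 183 with TCA alone. Endothelial markers (3 of 3) summed to 0.922 to 1.16, 6.76 to 10.5, 16.5 to 19.7 and 0.865 to 1.25 FPKM in groups A to D. Of 5 macrophage markers, 4 were under 1 FPKM in every library and the other, Cd68, was at 72.5 to 102 in group A, 24.4 to 28.9 with Cu/ES, 23.8 to 36.4 with Cu/ES plus TCA and 25.5 to 37.0 with TCA alone. Their part in the values of the 6 genes was not tested. In bulk libraries, fewer cells of a type and less RNA per cell cannot be told apart.

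Mt1 and Mt2 are neighbours on chromosome 8, in the order Bbs2, Mt4, Mt3, Mt2, Mt1, Nup93. Their coding sequences have 186 bases each with the stop codon, 61 codons of which 20 in either gene encode cysteine, and were identical at 79.6% of positions when aligned without gaps. The longest run of bases shared by the main transcripts of Mt1 and Mt2 was 20 bases, shorter than usual read lengths. An antisense gene, Gm45774, overlaps Mt2 in GENCODE M21 and was not analysed here.

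The windows around the RefSeq start sites of Mt1, Mt2 and Slc30a1 (build GRCm38.p6, 250 bases before the start and 50 from it on, all on the plus strand) are shown because these genes carry the metal response elements through which MTF-1 is known to act. Capitals mark the core of that element, searched as TGCACNC and TGCGCNC on both strands.
Mt1, chr8:94178839-94179138: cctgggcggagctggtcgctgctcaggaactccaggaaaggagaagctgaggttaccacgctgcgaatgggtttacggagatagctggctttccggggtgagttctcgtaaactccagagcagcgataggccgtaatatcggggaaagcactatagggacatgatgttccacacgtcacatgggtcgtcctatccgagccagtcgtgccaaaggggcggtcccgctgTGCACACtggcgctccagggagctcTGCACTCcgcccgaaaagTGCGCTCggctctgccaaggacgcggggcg
Mt2, chr8:94172368-94172667: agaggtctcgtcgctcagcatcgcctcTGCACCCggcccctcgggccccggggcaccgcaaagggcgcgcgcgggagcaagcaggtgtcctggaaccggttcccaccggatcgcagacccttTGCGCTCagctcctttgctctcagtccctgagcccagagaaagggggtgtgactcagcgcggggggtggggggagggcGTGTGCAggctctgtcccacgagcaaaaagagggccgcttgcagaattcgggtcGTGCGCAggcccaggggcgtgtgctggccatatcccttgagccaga
Slc30a1, chr1:191906531-191906830: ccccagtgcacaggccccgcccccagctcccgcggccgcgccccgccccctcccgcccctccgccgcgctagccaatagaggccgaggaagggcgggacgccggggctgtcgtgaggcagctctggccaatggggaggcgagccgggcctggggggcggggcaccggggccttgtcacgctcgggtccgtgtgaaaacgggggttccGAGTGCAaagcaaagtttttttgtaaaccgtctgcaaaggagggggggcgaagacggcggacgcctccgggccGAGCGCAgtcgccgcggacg

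The Mt1 window held 3 cores, all in the forward direction, the Mt2 window held 4, of which 2 were reversed, and the Slc30a1 window held 2, both reversed. Slc30a10 had 3 cores, of which a pair overlapped, and the 2 windows of Slc39a10 had 0. Mt3 and Mt4 had 1 each and Mtf1, the gene of MTF-1, had 0. Of 32851 windows of the same length in the table, 25.7% held at least 1 core, 7.11% at least 2, 1.97% at least 3 and 0.517% at least 4.

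The main GENCODE M21 transcript models of both metallothioneins begin upstream of a TATA box, at base 129 for Mt1 and base 90 for Mt2, and more cores lie between the annotated start and that box, 4 in Mt1 and 3 in Mt2. They are shown with 8 bases on either side, with the position of the core's first base counted from 1 at the transcript's start.
Mt1 transcript, base 10: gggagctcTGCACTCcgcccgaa
Mt1 transcript, base 28: ccgaaaagTGCGCTCggctctgc
Mt1 transcript, base 92: cgcctgctGGGTGCAaacccttt
Mt1 transcript, base 106: aaacccttTGCGCCCggactcgt
Mt2 transcript, base 13: aaaagggcGTGTGCAggcggcgg
Mt2 transcript, base 32: gcgggggcGCGTGCAtggtgcct
Mt2 transcript, base 66: ggagctttTGCGCTCgacccaat
The first 2 of the Mt1 transcript's cores are also the last 2 in the Mt1 window above. Both metallothionein genes thus hold cores on either side of the annotated start, and the matches describe letters only.

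On the deposited scale Mt1 transcripts were more abundant after Cu/ES and Mt2 transcripts less abundant, so that the pair changed in opposite directions. With median-ratio scaling, however, Mt2 was higher in group B. For Mt1, the libraries of group A were at 163, 165 and 179 FPKM, those of group B at 373, 303 and 387, those of group C at 149, 175 and 157 and those of group D at 131, 97.2 and 115. All group B libraries stood above every other library, groups A and C overlapped, and group D was lowest without overlap. Group means were 169 ± 8.71 (SD, n = 3) in group A, 354 ± 45.1 with Cu/ES, 160 ± 13.6 with Cu/ES plus TCA and 114 ± 16.9 with TCA alone.

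The Mt2 libraries were at 521, 551 and 592 FPKM in group A, 317, 234 and 292 with Cu/ES, 159, 175 and 150 with Cu/ES plus TCA and 703, 634 and 563 with TCA alone. Both groups with Cu/ES stood below both groups without it, group C was lowest, and groups A and D overlapped. Means were 554 ± 35.7 in group A, 281 ± 42.9 with Cu/ES, 161 ± 12.7 with Cu/ES plus TCA and 633 ± 70.1 with TCA alone (SD, n = 3 each). Behind these values were 7870 to 8819 reads of Mt1 and 11085 to 12867 of Mt2 in each group A library, and 12195 to 14983 and 4158 to 5591 in each group B library, so counting error was small beside the spread between libraries. Mt2 ranked between 96 and 102 by FPKM among all genes in group A and between 222 and 299 in group B, whereas Mt1 moved from between 287 and 312 to between 190 and 231. The summed level of Mt1 and Mt2 was 724 ± 44.1 FPKM in group A, 635 ± 85.7 with Cu/ES, 321 ± 24.7 with Cu/ES plus TCA and 748 ± 79.3 with TCA alone (SD, n = 3).

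**Figure D1:**
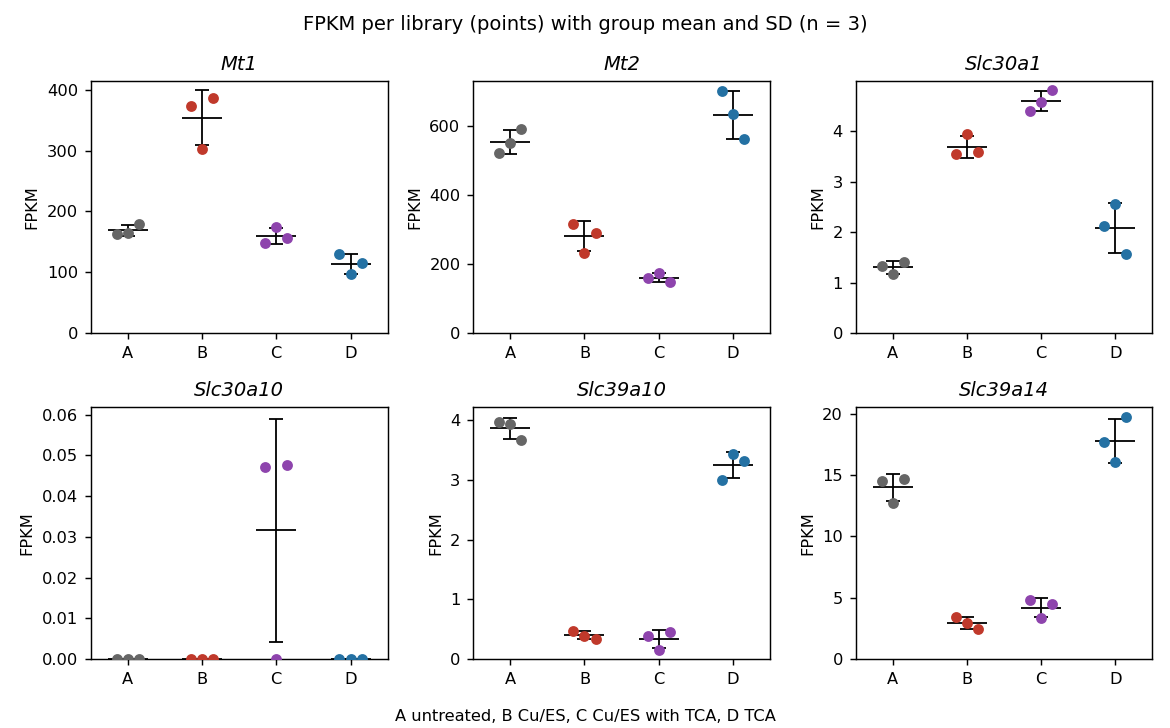
FPKM of the 6 genes in each library (points) for groups A (untreated), B (Cu/ES), C (Cu/ES with TCA) and D (TCA), with the group mean and SD (n = 3). Mt1 is highest in group B at 354 FPKM, Mt2 on this scale goes from 554 FPKM in group A to 281 in group B (0.30 higher on the log2 scale with median-ratio scaling instead), and Slc30a1 is higher and Slc39a10 and Slc39a14 are lower in both groups with Cu/ES.

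With Cu/ES alone, Mt1 was 2.09-fold higher than in untreated cells, a fitted log2 fold change of 1.05 (SE 0.11), and Mt2 was 1.97-fold lower, a log2 fold change of -0.99 (SE 0.11). Relative to the median gene, Mt1 stood 2.16 higher and Mt2 0.11 higher on the log2 scale. With TCA present on both sides (group C against group D), Mt1 was 1.40-fold higher, with a log2 fold change of 0.49, and Mt2 was 3.93-fold lower, with a log2 fold change of -1.97. Relative to the median gene these were 1.62 and -0.84. On the deposited scale, the Mt2 change of group B thus lay beside the median of all genes, and that of group C below it. Other scalings, described next, placed the group B change differently. It lay above the median with TPM (-1.36 against -1.56) and median-ratio size factors (0.30 against -0.03). After quantile normalization it lay far below the median (-1.57 against -0.10).

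The direction of the Mt2 change between groups B and A rested on the scaling of the libraries. Scaling to a common total of transcripts (TPM) gave log2 fold changes of 0.69 for Mt1 and -1.36 for Mt2, and quantile normalization gave 0.58 and -1.57. With median-ratio size factors, which set the median gene near 0, Mt1 was at 2.34 and Mt2 at 0.30, so that Mt2 was higher in group B than in group A. The size factors themselves were 1.580 to 1.615 in group A and 0.650 to 0.663 in group B. Between groups C and D, Mt2 was lower under all of these scalings, at -2.26 with TPM, -0.71 with median-ratio size factors and -2.54 with quantile normalization, and Mt1 was higher, at 0.21, 1.74 and 0.29.

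The gap between the 2 metallothioneins did not depend on the scaling in this way. The log2 fold change of Mt1 minus that of Mt2 in group B against group A lay between 2.01 and 2.15 over the 17 fits run, which include the 4 scalings, and between 2.34 and 2.83 in group C against group D. At these levels a factor per library leaves the gap almost unchanged by construction, as do other filters and model settings. Only quantile normalization and leaving out libraries could move it much, so the narrow range is no separate support for the gap. A ratio taken within a library cancels its scaling altogether. The ratio of Mt1 to Mt2 by FPKM was 0.314, 0.300 and 0.303 in group A, 1.18, 1.30 and 1.33 with Cu/ES, 0.936, 1.0 and 1.05 with Cu/ES plus TCA and 0.186, 0.153 and 0.205 with TCA alone. No 2 groups overlapped, and the order was B, C, A, D. The ratio was 4.14-fold higher in group B than in group A (log2 difference 2.05, SE 0.06) and 5.53-fold higher in group C than in group D (2.47, SE 0.13).

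The size of the ratio of Mt1 to Mt2 depended on the length the reads were divided by, whereas changes between groups did not. The deposited FPKM rest on a length of 1258 bases for Mt1, close to the 1246 bases covered by all GENCODE M21 exons of the gene, and 556 bases for Mt2, while the main transcripts of Mt1 and Mt2 have 549 and 511 bases. Dividing the recovered reads by these transcript lengths, a calculation added after the values were seen, gave Mt1 to Mt2 ratios of 0.643 ± 0.0154 in group A, 2.67 ± 0.167 with Cu/ES, 2.10 ± 0.121 with Cu/ES plus TCA and 0.382 ± 0.0547 with TCA alone (SD, n = 3). By FPKM the pair was about level in group C, at 0.996 ± 0.0576, and per transcript length Mt1 was higher there. In groups A and D Mt2 was the more abundant of the pair on both scales, and in group B Mt1 was.

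**Figure D2:**
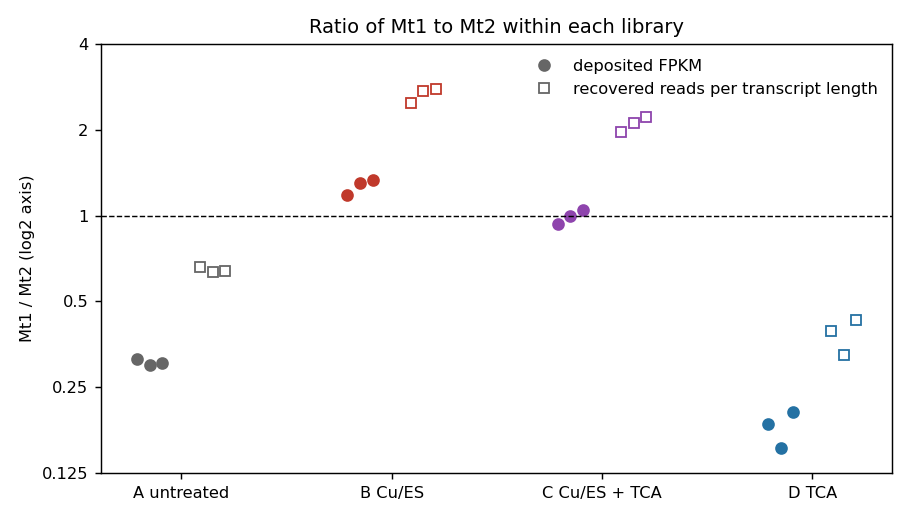
Ratio of Mt1 to Mt2 within each library on a log2 axis, from the deposited FPKM (filled circles) and from recovered reads per transcript length (open squares), for groups A to D (n = 3 each). The dashed line marks equal levels. The FPKM ratio is 0.300 to 0.314 in group A and 1.18 to 1.33 in group B, and dividing by transcript length moves every group up by the same factor.

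The effect of the bile acid on the metallothioneins was tested with limma, with p-values adjusted by Benjamini-Hochberg over all 10615 genes. The Cu/ES changes that chose the members drew on the same libraries, so the p-values of the members are not independent of that choice. Added to Cu/ES (group C against group B), TCA came with lower Mt1, by 2.21-fold (log2 fold change -1.13, SE 0.11, limma adjusted p = 5.31e-06), and lower Mt2, by 1.74-fold (-0.79, SE 0.11, limma adjusted p = 7.75e-05). All 3 libraries of group C were below all 3 of group B for both genes. The log2 fold changes stayed between -1.14 and -1.02 for Mt1 and between -0.79 and -0.70 for Mt2 under TPM, median-ratio and quantile scaling and with reads in limma-voom. Of the 5 members tested, Mt1 and Mt2 were lower and Slc39a14 was higher in this comparison at an adjusted p under 0.05, against 23.6% of all genes tested lower and 20.4% higher.

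Without copper (group D against group A), TCA came with lower Mt1, by 1.48-fold (log2 fold change -0.57, SE 0.11, limma adjusted p = 0.00326), and all 3 libraries of group D were below those of group A. Mt2 was not called (log2 fold change 0.19, SE 0.11, limma adjusted p = 0.245). In this comparison Mt1 was lower and Slc30a1 higher among the 5 members, against 11.5% of all genes lower and 10.5% higher. The TCA effect with Cu/ES minus that without it, the interaction, was -0.56 for Mt1 (SE 0.16) and -0.98 for Mt2 (SE 0.16). The same numbers are the Cu/ES change with TCA minus that without it, which draws on the values that chose the genes, so the interactions of the members are given without a test. After quantile normalization the Mt1 interaction was -0.29. The interaction was called at an adjusted p under 0.05 in 37.5% of all genes, and group B serves in both the Cu/ES and the TCA comparison.

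The ratio of Mt1 to Mt2 fell by 1.27-fold from group B to group C (log2 difference -0.35, SE 0.07) and by 1.70-fold from group A to group D (-0.76, SE 0.12). The exact two-sided permutation test gave p = 0.1 in either case, the smallest value that 3 against 3 libraries allow. Every library with TCA had a lower ratio than every library without it on the same copper background.

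**Figure D3:**
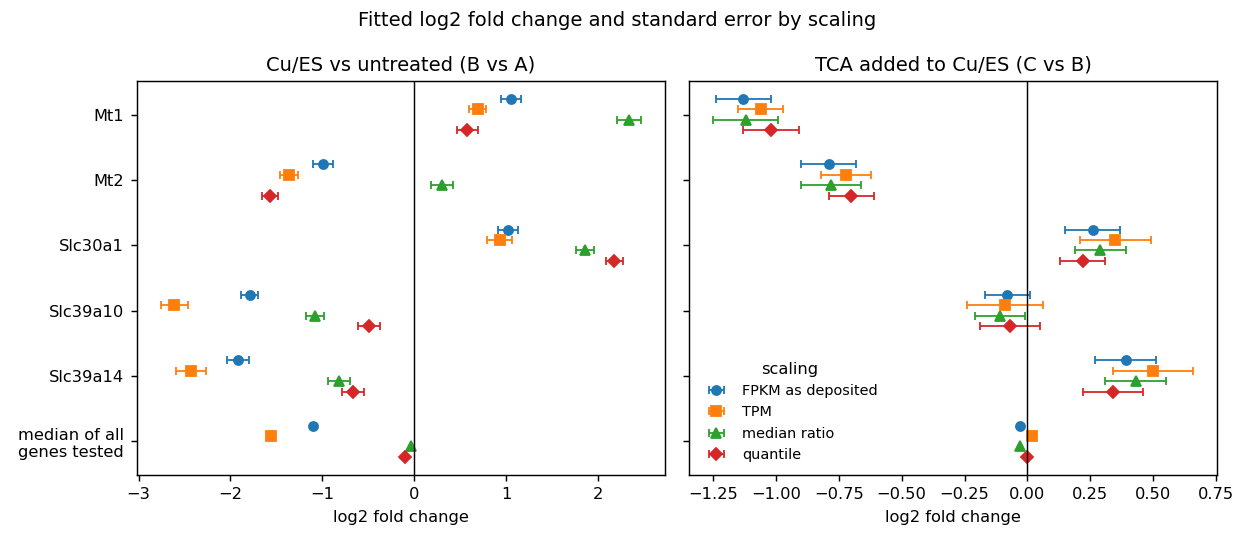
Fitted log2 fold changes (points) with standard errors (bars) of the 5 genes tested, and the median of all genes tested (points only), under 4 scalings of the libraries, for Cu/ES against untreated (left) and for TCA added to Cu/ES (right). On the left, Mt2 lies at -1.57 to -0.99 under 3 scalings and at 0.30 with median-ratio size factors, whereas on the right the scalings nearly coincide.

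The zinc exporter Slc30a1 was higher in both groups with copper. Its libraries were at 1.34, 1.17 and 1.42 FPKM in group A, 3.54, 3.94 and 3.59 with Cu/ES, 4.40, 4.58 and 4.81 with Cu/ES plus TCA and 2.12, 2.55 and 1.57 with TCA alone. No 2 groups overlapped, in the order A, D, B, C, with means of 1.31 ± 0.127, 2.08 ± 0.493, 3.69 ± 0.216 and 4.60 ± 0.202 FPKM (SD, n = 3). Slc30a1 was 2.81-fold higher in group B than in group A (log2 fold change 1.02 on the log2(FPKM + 1) scale, 2.12 above the median gene) and 2.21-fold higher in group C than in group D (0.88). It was higher in group B under TPM, median-ratio and quantile scaling, at 0.93, 1.86 and 2.18. TCA alone came with more Slc30a1 (log2 fold change 0.40, SE 0.11, limma adjusted p = 0.0169), and this call was lost when group D replicate 2 was left out (0.29, limma adjusted p = 0.0664), group D replicate 1 (0.39, limma adjusted p = 0.0592) or group A replicate 2 (0.36, limma adjusted p = 0.0574). TCA added to Cu/ES gave 0.26 (SE 0.11, limma adjusted p = 0.0676), and the interaction was -0.15 (SE 0.15). An antisense gene, 1700034H15Rik, overlaps Slc30a1, and whether the counting used strand is not given in the sources used here.

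Slc39a10, a plasma membrane importer of zinc, was far lower with copper. Its libraries were at 3.97, 3.94 and 3.66 FPKM in untreated cells and 3.00, 3.43 and 3.31 with TCA alone, against 0.474, 0.383 and 0.342 with Cu/ES and 0.393, 0.158 and 0.446 with both. Groups B and C overlapped and lay below both groups without copper, and group D lay below group A. The mean of group A was 9.64-fold that of group B (log2 fold change -1.79, -0.69 relative to the median gene), and that of group D was 9.77-fold that of group C (-1.68, -0.55 relative to the median gene). These log2 values are on the log2(FPKM + 1) scale, which shrinks the fall of a gene this low. With limma-voom on recovered reads the change was -3.28 in group B against group A, beside a median gene at -1.33. In group C against group D it was -3.46 beside -1.40. Under TPM, median-ratio and quantile scaling the log2 fold change of group B was -2.61, -1.08 and -0.49, lower throughout. TCA gave no call for Slc39a10 with Cu/ES (-0.08, limma adjusted p = 0.545) or without (-0.19, limma adjusted p = 0.156), and the interaction was 0.12 (SE 0.13). The FPKM of Slc39a10 rest on a length of 15974 bases, where the GENCODE M21 exons cover 6095, so its level is not set against that of other genes.

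Slc39a14, the importer of zinc, manganese and iron that inflammation raises in liver, was also lower with copper. Its libraries were at 14.5, 12.7 and 14.7 FPKM in group A, 3.44, 2.96 and 2.48 with Cu/ES, 4.79, 3.32 and 4.48 with Cu/ES plus TCA and 17.7, 16.1 and 19.7 with TCA alone. The order was D, A, C, B, and only the last 2 overlapped. Slc39a14 was 4.72-fold lower with Cu/ES than without (log2 fold change -1.92, -0.82 relative to the median gene) and 4.24-fold lower when TCA was present on both sides (-1.86, -0.74 relative to the median gene). With Cu/ES present, TCA came with 1.42-fold more Slc39a14 (log2 fold change 0.39, SE 0.12, limma adjusted p = 0.0199). This call was lost without group C replicate 1 (0.30, limma adjusted p = 0.0849), group C replicate 3 (0.34, limma adjusted p = 0.0716) or group B replicate 3 (0.30, limma adjusted p = 0.0902). TCA alone gave 0.33 (SE 0.12, limma adjusted p = 0.0709), and the interaction was 0.06 (SE 0.17).

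Slc30a10, the manganese exporter, had no read in groups A, B and D and was therefore left out of the fit. In group C it had 8 reads in replicate 1 and 9 in replicate 3, at 0.0471 and 0.0477 FPKM, and 0 in replicate 2. A count of 0 allows up to 3 reads per library, which corresponds to 0.0129 to 0.0167 FPKM in groups A, B and D and covers counting error only.

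Past both thresholds used for the copper comparisons, 0.05 for the adjusted p and 1 for the size of the log2 fold change, the share of all genes tested was 10.1% higher and 53.0% lower in group B against group A, and 11.2% higher and 53.3% lower in group C against group D. In size alone, Mt1 and Slc30a1 lay above 1 and Slc39a10 and Slc39a14 below -1 in group B, whereas Mt2 at -0.99 lay just inside. In group C, Mt2, Slc39a10 and Slc39a14 lay below -1. These changes chose the genes, so nothing is read from the counts.

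The rest of the metallothionein family differed from the pair and was low. Mt3, known as the brain form, had 0 reads in the 3 libraries of group A and 38, 38 and 34 reads in those of group B, at 2.23, 2.21 and 2.05 FPKM, which is at least 45.1-fold higher against a floor of 3 reads over group A, a bound that covers counting error only. In group C it was at 1.72, 3.89 and 2.42 FPKM, and in group D at 0.0934, 0 and 0. Mt4, known from stratified epithelia, fell from 2.82 ± 0.851 FPKM in group A to 0.325 ± 0.0790 in group B (SD, n = 3). The fitted log2 fold change was -1.5 and rested on 12 reads in all of group B, and Mt4 stood at 3.23 ± 0.751 FPKM in group D and 0.522 ± 0.313 in group C. Of the 4 metallothioneins, Mt1 and Mt3 lay higher with Cu/ES alone and Mt4 lower under every scaling, and Mt2 lower except with median-ratio scaling. Mt3 passed the filter on low values only through groups B and C and Mt4 through groups A and D, so their copper changes are given without a test. TCA gave no call for Mt3 or Mt4 with Cu/ES (0.17, limma adjusted p = 0.384, and 0.18, limma adjusted p = 0.427).

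The genes that flank the cluster also moved in different directions. Bbs2, a subunit of the ciliary BBSome, fell by 1.97 on the log2 scale in group B (limma adjusted p = 1.27e-10), and Nup93, a nucleoporin on the Mt1 side, was higher by 0.53 (limma adjusted p = 1.06e-05), directions that no scaling turned. They are named as neighbours of the cluster, a choice made after values were seen.

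Mtf1, which encodes the metal-sensing activator of these genes, was at 3.35 ± 0.0564 FPKM in group A, 6.91 ± 0.281 with Cu/ES, 9.05 ± 1.69 with Cu/ES plus TCA and 4.23 ± 0.0450 with TCA alone (SD, n = 3). It rose by a log2 fold change of 0.86 with Cu/ES (SE 0.10, limma adjusted p = 2.00e-06) and by a further 0.33 when TCA was added (SE 0.10, limma adjusted p = 0.0202). The libraries of groups B and C overlapped, with group C replicate 2 at 7.12 FPKM and group B at 6.66 to 7.21. Of 10 genes listed as MTF1-dependent, 9 were tested, the members Mt1, Mt2, Slc30a1 and Slc39a10 among them. Of the 5 outside the members, 1 lay higher and 2 lower past both thresholds in group B against group A, beside 10.1% and 53.0% of all genes, with a median of -0.55 beside -1.10. In group C against group D, 1 lay higher and 2 lower, beside 11.2% and 53.3%. The higher gene, Gclc, the catalytic subunit of the enzyme that limits glutathione synthesis, rose from 10.9 ± 0.512 FPKM in group A to 32.0 ± 0.926 in group B (log2 fold change 1.47, SE 0.08, limma adjusted p = 2.41e-10). The lower genes of group B were Ndrg1 (log2 fold change -1.65, limma adjusted p = 9.67e-07) and Selenoh. Selenoh fell from 56.0 to 27.5 FPKM (limma adjusted p = 2.59e-08). With median-ratio scaling Gclc, Ndrg1 and Selenoh were at 2.68, -0.37 and 0.25, so Selenoh reversed. Slc40a1, listed but not past the filter, was at 0.619 FPKM in group A and 0.0449 in group B. At an adjusted p under 0.05, 1 of the 5 was higher and 2 were lower when TCA was added to Cu/ES, beside 20.4% and 23.6% of all genes, and 0 were higher and 2 lower with TCA alone, beside 10.5% and 11.5%. With TCA added to Cu/ES these were Ndrg1 at 1.10, and Csrp1 at -1.03 and Selenoh at -0.77 (limma adjusted p = 3.62e-04, 4.97e-06 and 1.08e-05). The list held genes named in several cell types and in both directions, and its counts are a description.

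The zinc carriers of the Slc30a (export and loading of compartments) and Slc39a (import into the cytosol) families were compared as a whole. Of 24 listed, 22 were in the table, Slc30a8 and Slc39a5 were not analysed here, and 16 passed the filter. Leaving out the members, 13 were tested, and in group B against group A 0 were higher and 7 lower past both thresholds, close to the 53.0% of all genes lower and beside 10.1% higher. Their median log2 fold change was -1.09 beside -1.10 over all genes tested, and 7 of the 13 lay above that median. In group C against group D, 2 were higher and 6 lower past both thresholds, beside 11.2% and 53.3% of all genes, with a median of -0.79 beside -1.13. In group B against group A, the 5 exporters among them gave 0 higher and 4 lower genes and the 8 importers 0 higher and 3 lower.

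Slc39a1, a plasma membrane importer and the second most abundant of the importers in untreated cells, fell the most of the 16, from 96.9 ± 7.03 FPKM to 9.08 ± 0.771 (log2 fold change -3.28, SE 0.08, limma adjusted p = 2.16e-13). Slc39a7, which releases zinc from the endoplasmic reticulum, was the most abundant at 141 ± 5.38 FPKM and fell by 0.63 on the log2 scale (limma adjusted p = 1.57e-07), but was 0.65 higher with median-ratio scaling. The exporters that load the secretory pathway fell too, Slc30a5 from 27.6 ± 1.81 to 4.70 ± 0.393 FPKM (limma adjusted p = 2.10e-11), Slc30a7 with a log2 fold change of -2.02 (limma adjusted p = 6.23e-11) and Slc30a6 with -1.23 (limma adjusted p = 1.36e-06), the last at 0.03 after quantile normalization. Slc30a4 at 74.7 ± 2.99 FPKM and Slc30a9 at 32.5 ± 2.22 were the most abundant exporters of group A, and they had log2 fold changes of -0.64 and -1.22 (limma adjusted p = 1.51e-05 and 1.47e-08), which became 0.62 and 0.01 with median-ratio scaling. The importers Slc39a11 and Slc39a13 had log2 fold changes of -1.09 and -1.86 (limma adjusted p = 5.10e-08 and 2.96e-10), and Slc39a11 was at 0.30 after quantile normalization. Slc39a1, Slc30a5, Slc30a7 and Slc39a13 were lower under TPM, median-ratio and quantile scaling alike, Slc39a1 at -3.72, -2.05 and -2.87. Of the 13 genes, 2 were higher and 3 lower past both thresholds with median-ratio scaling, and 3 and 2 after quantile normalization.

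With TCA added to Cu/ES, genes of the families moved in both directions. Of the 13 genes outside the members, 5 were higher and 4 lower at an adjusted p under 0.05, beside 20.4% and 23.6% of all genes, and 8 had a called interaction, 4 in either direction, beside 37.5%. Slc39a3, a plasma membrane importer, rose from between 3.43 and 3.54 FPKM to between 7.91 and 11.4 (log2 fold change 1.28, SE 0.12, limma adjusted p = 2.97e-06, interaction 1.29). Slc39a13, an importer of the Golgi and vesicles, fell from 3.86 ± 0.137 to 1.28 ± 0.324 FPKM (-1.10, SE 0.10, limma adjusted p = 3.96e-06, interaction -1.13). Slc39a9, the Golgi importer, was at 13.5 ± 0.227, 22.3 ± 0.178, 38.2 ± 5.90 and 16.4 ± 0.564 FPKM in groups A to D, and rose with Cu/ES by 0.68 (limma adjusted p = 5.46e-06) and, with TCA on both sides, by 1.16 (limma adjusted p = 1.37e-08). With TCA alone 2 of the 13 were higher and 0 lower, beside 10.5% and 11.5% of all genes, at 0.30 for Slc39a6 and 0.24 for Slc39a7 (limma adjusted p = 0.0188 and 0.0119).

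**Figure D4:**
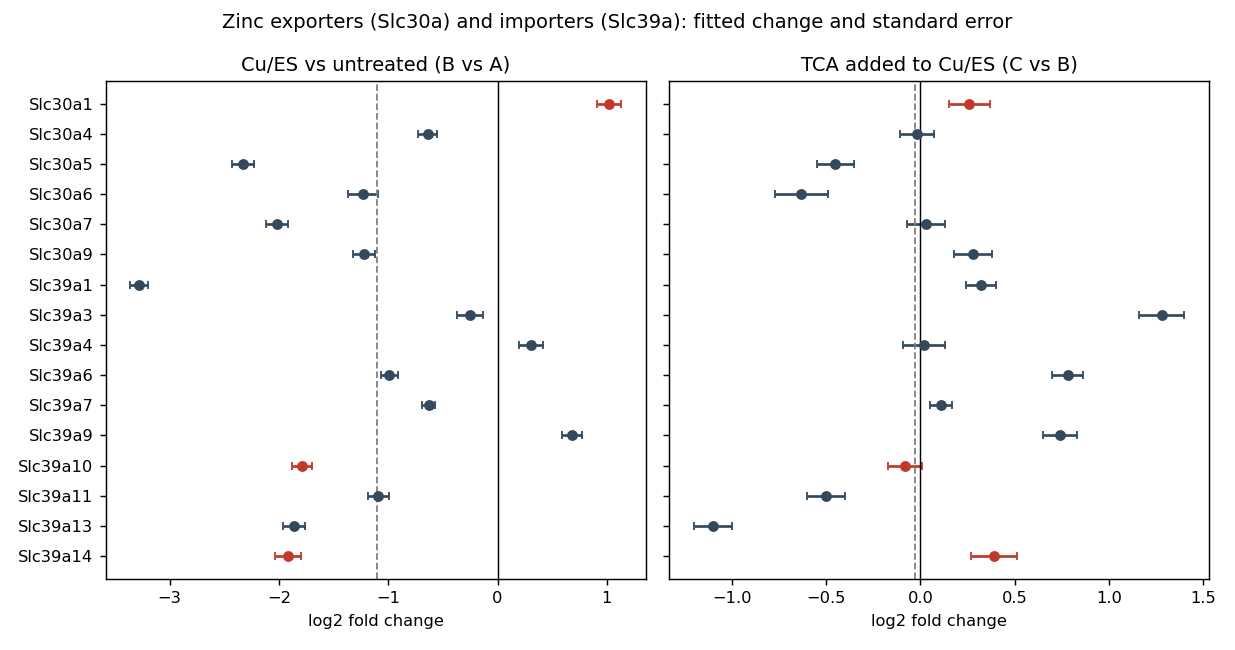
Fitted log2 fold change (point) and standard error (bar) of the 16 Slc30a and Slc39a genes tested, with the members in red, for Cu/ES against untreated (left) and for TCA added to Cu/ES (right). The dashed line is the median of all genes tested, -1.10 on the left. Slc30a1 at 1.02 is the highest of the exporters and importers on the left and Slc39a1 at -3.28 the lowest, and on the right Slc39a3 at 1.28 and Slc39a13 at -1.10 lie farthest from 0.

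Manganese handling genes, listed because Slc39a14 and Slc30a10 carry that metal, were 6, of which 4 were tested. Outside the member Slc39a14, all 3 lay lower past both thresholds in group B against group A, beside 53.0% of all genes, with a median of -1.23 beside -1.10. Slc11a2, the divalent metal transporter, fell by 1.31 on the log2 scale (limma adjusted p = 1.71e-07), and the manganese pump Atp2c1 of the Golgi fell by 1.23 (limma adjusted p = 9.05e-10). The other, Atp13a1, fell by 1.13 (limma adjusted p = 1.78e-08). With median-ratio scaling Slc11a2, Atp2c1 and Atp13a1 were at -0.21, -0.03 and 0.07, and after quantile normalization at -0.00, -0.30 and -0.16. In group C against group D, 2 of the 3 were lower past both thresholds, beside 53.3% of all genes.

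The genes whose pattern over the 12 libraries lay closest to each member were found by the root mean square difference of log2(FPKM + 1), taken from the group A mean. For Mt1 these were Plekho1, Spp1 and Dek, at 0.24, 0.26 and 0.27, and 0 genes came within 0.2. Spp1, which encodes osteopontin, was at 673, 1190, 682 and 560 FPKM in groups A to D. The pattern of Mt2 was more widely shared, with 63 genes within 0.2 and Krtcap2, Dbi and Adsl closest at 0.13, 0.14 and 0.14. Krtcap2, a subunit of the oligosaccharyltransferase, was at 109, 54.6, 31.6 and 122 FPKM. Slc30a1 had 46 genes within 0.2, and Efnb3, Sh3bp5l and Kansl2 were closest, at 0.11, 0.14 and 0.14. Slc39a10 had 580, led by Zmynd8, Parvb and Depdc5 at 0.05, 0.07 and 0.08, and Slc39a14 had 61, led by Pptc7, Senp5 and Bcl2l2 at 0.10, 0.12 and 0.12. On this scale low values lie close together, so genes near Slc39a10 or Slc30a1 can differ from them in fold. From group A to group B, Zmynd8 went from 14.2 to 3.44 FPKM and Slc39a10 from 3.86 to 0.400. The genes shared libraries and scaling, and the distances are a description.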

How the data were processed

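Total RNA of AML12 cells was taken with TRIzol, and polyA libraries were made with a VAHTS Universal V6 kit. Per the labels, the processing used fastp, HISAT2 and HTSeq on GRCm39, with versions, annotation and strand setting not given in the sources used here. The authors deposited FPKM per gene for the 12 libraries. Whole reads were recovered from the spacing of these values, in all 22212 genes above 0 in at least 2 libraries.

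FPKM were tested as log2(FPKM + 1) for genes with a mean of at least 1, with limma 3.58.1 (R 4.3.3, trend, 1 model of 4 groups, 8 residual degrees of freedom) and Benjamini-Hochberg adjustment over 10615 genes. A fold change on this scale understates that of low genes. The study's methods name a count test, which FPKM do not allow. Ratios were compared by exact permutation. The members and the gene lists were chosen with earlier results of these data known. Genes outside the members were named where they passed both thresholds (adjusted p under 0.05, absolute log2 fold change above 1), where they were among the 3 most abundant of their family in group A, or, 3 per member, by closest pattern, and a few neighbours and list members were added after values were seen. Alternatives were other pseudocounts, filters and scalings, limma-voom on recovered reads, a replicate block, the compared groups alone and leaving out each library. Sequences came from RefSeq windows of GRCm38.p6, which held Mt1, Mt2, Slc30a1, Slc30a10 and Slc39a10, and from GENCODE M21 transcripts. Python 3.11.15 was used elsewhere.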

Additional observations from a re-analysis of the deposited data

Results flagged for a closer look

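The interaction term in limma set the effect of TCA on the metallothioneins apart between cells with and without Cu/ES. It equals the difference between the 2 Cu/ES changes, which draw on the values that chose these genes, so it is given as a description with no p. For Mt1 the change with TCA was -1.13 with Cu/ES and -0.57 without, an interaction of -0.56 (SE 0.16). For Mt2 it was -0.79 with Cu/ES and 0.19 without, an interaction of -0.98 (SE 0.16). The interaction was called in 37.5% of all genes tested.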

How the results depend on the processing

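The alternatives were tallied for the members, the family counts (members included) and the ratio of Mt1 to Mt2. Of these, 493 values kept their side of the threshold or, where untested, stayed close in size. Some values called in neither fit changed sign and are among the 493. A further 64 moved, 11 lost and 6 gained a call and 1 reversed. Single genes outside the members were not in this tally, and several reversed under other scalings, as given above. For Cu/ES alone, Mt1 was at 0.69 (TPM), 2.34 (median ratio) and 0.58 (quantile) and Mt2 at -1.36, 0.30 and -1.57, the direction of Mt2 reversing with median-ratio scaling. Between groups C and D, Mt1 was at 0.21, 1.74 and 0.29 and Mt2 at -2.26, -0.71 and -2.54. In group B against group A the median gene lay at -1.56, -0.03 and -0.10 under these scalings. Under the last 2, whose medians were close, Mt2 still lay at 0.30 and -1.57. The Mt1 interaction, given without a test, was -0.56 with no filter and -0.29 after quantile normalization. Mt2 with TCA alone was called after quantile normalization (0.28, adjusted p = 0.0444 in limma). Slc30a1 with TCA added to Cu/ES was called with median-ratio scaling (0.29, adjusted p = 0.0324 in limma), and with TCA alone it was lost when only the compared groups were fitted (0.40, adjusted p = 0.0512). Slc39a14 with TCA added to Cu/ES was lost with no filter (0.39, adjusted p = 0.0608 in limma) and with only the compared groups (0.39, adjusted p = 0.0687). With TCA alone Slc39a14 was called after quantile normalization (0.41), with only the compared groups (0.33), in limma-voom (0.35) and with the replicate block (0.33, adjusted p = 0.0392 in limma). The cause of these changes was not tested.

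Leaving out the members, whose Cu/ES changes chose them, 13 family genes were counted in the Cu/ES comparisons. In group B against group A, 0 were higher and 7 lower past both thresholds, beside 10.1% and 53.0% of all genes. The counts were 0 and 9 with TPM, 2 and 3 with median-ratio and 3 and 2 with quantile scaling. In group C against group D, 2 were higher and 6 lower, beside 11.2% and 53.3% of all genes. These became 0 and 9 with TPM, 2 and 4 with median-ratio and 3 and 3 with quantile scaling. With TCA alone, members included, 3 of 16 were higher and 0 lower at an adjusted p under 0.05, beside 10.5% and 11.5% of all genes. The higher count was 5 with quantile scaling, limma-voom or the replicate block, and the lower count was 1 with no filter. Leaving out single libraries, the count of higher genes spanned 1 to 2 in group C against group D and 1 to 2 with TCA alone. In the former, no member rose by more than 1 on the log2 scale. The count of higher genes in group C fell to 1 without group C replicate 1 or 3. With TCA alone the count was 1 without group A replicate 2 or group D replicate 1. Without single libraries, Slc30a1 with TCA alone lay at 0.29 to 0.53 and Slc39a14 with TCA added to Cu/ES at 0.30 to 0.51.

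Correlations of same-numbered deviations ran from -0.171 to 0.579, above 0.1 in 11 of 18 pairs. Those of deviations with other numbers ran from -0.51 to 0.367. Whether replicate numbers pair the samples was not tested. The replicate block changed no other call of the members. With 3 libraries per group the exact test could not go below 0.1, and Slc30a10 was too shallow to compare.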
